A study of Mus musculus with 52 samples.

Results

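Sall1 and Sall4 encode spalt-like transcription factors, proteins with C2H2 zinc fingers that are made in mouse embryonic stem (ES) cells. The 2 genes were read by 3 of the 20794 probes of a two-colour cDNA array, Sall1 (Entrez gene 58198, chromosome 8) by probe 20777 and Sall4 (Entrez gene 99377, chromosome 2) by probes 7822 and 20780. They were taken from 9030 named genes by the gene symbol of the platform annotation. The pair was selected on its log2 ratios in the same 13 comparisons of ES lines that are described here, so the values of Sall1 and Sall4 are a description and carry no p-value. Sall4 supports the undifferentiated state of ES cells and works with the pluripotency factors Oct4 (gene Pou5f1) and Nanog. Both proteins can recruit the NuRD complex, which removes acetyl groups from histones and remodels nucleosomes. Sall1 is best known for its part in the development of the kidney and the limb.

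The RNA came from 7 mouse ES lines, which the labels call B6NT, B6PGA, #4 (B6), HM-1, HM-1 NT, ZFCUMNT and PDCUMNT, with no further treatment, genotype or passage. What NT, PGA, B6, ZF and PD stand for is not written out there. Per the series description, different cells gave the donor nuclei, and for a pair of lines these were cumulus cells, which surround the oocyte, with different cloning methods. It names neither that pair nor the methods. Each comparison set 2 lines directly against each other on 4 arrays, 2 with the second-named line in Cy5 and 2 with it in Cy3, which made 52 arrays. Nothing says that the 4 arrays came from separate cultures, so the spread between them may be technical. The labels' protocol also speaks of organs and of a pool of control animals, whereas each channel of an array is labelled with an ES line, and these labels were followed.

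Between 17620 and 20200 probes were measured per array, and Sall1 was measured on 50 arrays, Sall4 on 52. Every ratio below subtracts the first-named line from the second-named line and is read as log2 of Cy5 over Cy3. The logarithm's base and the numerator dye are not given in the sources used here, and should the authors have divided Cy3 by Cy5, all signs below change together. A ratio holds no absolute level, so whether a line expressed the defining markers of ES cells could not be checked. In bulk RNA, fewer cells with a transcript and less transcript per cell cannot be told apart. In an earlier check of these data, some arrays of 5 comparisons, B6NT vs ZFCUMNT, HM-1 NT vs ZFCUMNT, HM-1 vs #4 (B6) and those of #4 (B6) with B6NT and with B6PGA, went against their dye labels over all features, and the line levels are given without these 5 as well.

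The start of Sall1 is shown because Sall1 is the member whose ratio varied between lines, and because Klf4, whose protein belongs to a family that binds CACCC-type sites, varied beside it. The RefSeq promoter window of 300 bases, 250 before and 50 after the most upstream annotated start, lies at chr8:89044113-89044412 (GRCm38.p6, minus strand). Capitals mark CACCC or its reverse complement GGGTG, and ATTGG, the reverse complement of CCAAT.
Sall1: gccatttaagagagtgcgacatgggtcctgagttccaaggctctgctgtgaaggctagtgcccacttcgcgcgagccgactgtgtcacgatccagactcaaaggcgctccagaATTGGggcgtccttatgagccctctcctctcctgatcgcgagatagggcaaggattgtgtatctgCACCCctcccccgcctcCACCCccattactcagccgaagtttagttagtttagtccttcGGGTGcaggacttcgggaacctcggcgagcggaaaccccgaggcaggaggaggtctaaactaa
CACCC occurred 2 times as printed and 1 time in reverse, and 57.5% of 32851 RefSeq windows of this length held it on either strand. ATTGG occurred 1 time, and 37.4% of windows held CCAAT on either strand. Neither the octamer ATGCAAAT, found in 1.74% of windows on either strand, nor ACAATG, found in 12.6%, occurred in either direction. The window was 57.3% G and C, against a median of 52.7% over all windows. These are matches of letters in 1 window and say nothing of what binds there, and a part of Klf4 in the Sall1 values was not tested.

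Sall1 differed most in 3 of the 4 comparisons that held #4 (B6). That line was set directly against HM-1, B6NT, B6PGA and ZFCUMNT, and not against HM-1 NT or PDCUMNT. In HM-1 vs #4 (B6) the 4 arrays gave -1.68, -1.74, -1.62 and -2.09. The next comparison, #4 (B6) vs B6NT, gave 3.17, 1.15, 0.66 and 1.51, and in #4 (B6) vs B6PGA 2.74, 3.96, 2.96 and 1.54. The sign of every one of these 12 arrays put Sall1 lower in #4 (B6) under the Cy5 over Cy3 reading, in both dye orientations. All of them belong to comparisons in which arrays 3 and 4 went against their dye labels over all features. Whether those arrays follow their labels was not tested here. Turned by the labels, Dppa5a and Klf4, taken up below, kept the same sign on all 4 arrays in each of these comparisons. Sall4 did not in any of them. Dppa5a was picked by its likeness to Sall1 over these same turned values, and Klf4 is from a list written with earlier results known. Their agreement with Sall1 therefore says nothing of whether the labels are right. With arrays 3 and 4 turned the other way, the ratios stand as in the deposited table. The values were then 0.07 in HM-1 vs #4 (B6), 0.54 for B6NT and 0.55 for B6PGA against #4 (B6). In each of these comparisons arrays 3 and 4 then lay on the other side of 0 from arrays 1 and 2. The direction against HM-1, and the agreement of the arrays against B6NT and B6PGA, thus rest on the labels. With the labels followed, the fitted values were -1.78 ± 0.35 (SE, n = 4 arrays), 1.62 ± 0.35 (SE, n = 4) and 2.80 ± 0.35 (SE, n = 4). The last was the 13th largest in size of 15535 features tested in #4 (B6) vs B6PGA.

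In the fourth comparison with this line, #4 (B6) vs ZFCUMNT, 3 arrays measured Sall1, at 2.30, 1.33 and -0.13. The third array lay on the other side of 0, and the fitted value was 1.06 ± 0.41 (SE, n = 3). Turned to #4 (B6) minus the other line, 14 of the 15 arrays with #4 (B6) were negative, with a median of -1.68 and a range of -3.96 to 0.13. These 4 comparisons share the RNA of #4 (B6) and are not independent of each other.

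**Figure D1:**
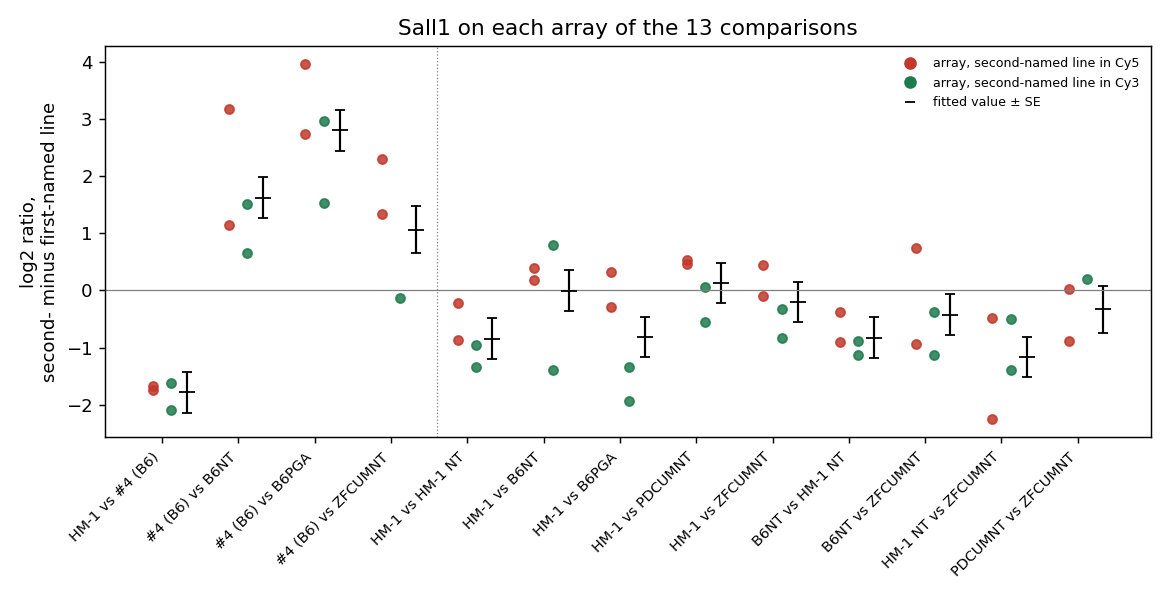
Log2 ratio of Sall1 (vertical axis, second- minus first-named line) on each array of the 13 comparisons (horizontal axis). Red points carry the second-named line in Cy5 and green points in Cy3, black bars are the fitted value ± SE, and the dotted line parts the 4 comparisons with #4 (B6), which reach from -2.09 to 3.96, from the other 9, which lie between -2.26 and 0.79.

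Sall1 passed the threshold (limma, Benjamini-Hochberg adjusted p under 0.05 over all features of a comparison) in 3 of 13 comparisons. The share of all tested features past it was 1.22% in #4 (B6) vs B6PGA, 0.219% in HM-1 vs #4 (B6) and 0.245% in #4 (B6) vs B6NT, the 3 in which Sall1 passed. It was 0.935% in #4 (B6) vs ZFCUMNT, 0.254% in HM-1 vs HM-1 NT, 0.17% in HM-1 vs B6NT, 0.494% in HM-1 vs B6PGA and 1.14% in HM-1 vs PDCUMNT. It was 0.101% in HM-1 vs ZFCUMNT, 1.04% in B6NT vs HM-1 NT, 0.124% in B6NT vs ZFCUMNT, 0.292% in HM-1 NT vs ZFCUMNT and 0.763% in PDCUMNT vs ZFCUMNT. Because Sall1 was chosen on these contrasts, nothing is read from its count against these shares. The call in HM-1 vs #4 (B6) was lost when array 1, 2 or 4 was left out, with values of -1.70, -1.68 and -1.79. The call in #4 (B6) vs B6NT was lost without a dye term, and without array 1 (1.21) or array 4 (1.55). The call in #4 (B6) vs B6PGA held without any single one of its 4 arrays (2.51 to 3.12). As Sall1 was chosen on these same values, a call that held is no added evidence and only describes the arrays.

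Sall1 also varied where #4 (B6) took no part, though by less than in the comparisons in which it passed. In HM-1 vs HM-1 NT the arrays gave -0.22, -0.86, -1.33 and -0.95, fitted at -0.84 ± 0.35 (SE, n = 4). In B6NT vs HM-1 NT they gave -0.91, -0.38, -0.89 and -1.12, fitted at -0.82 ± 0.35 (SE, n = 4). All 8 arrays were negative, which put HM-1 NT below both HM-1 and B6NT. In HM-1 NT vs ZFCUMNT all 4 arrays were negative as well, at -2.26, -0.48, -1.40 and -0.51, fitted at -1.16 ± 0.35 (SE, n = 4). That was larger in size than the 1.06 of #4 (B6) vs ZFCUMNT.

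In the remaining 6 comparisons the arrays of Sall1 fell on both sides of 0. HM-1 vs B6PGA was split by dye, with 0.32 and -0.29 where B6PGA was in Cy5 and -1.94 and -1.34 where it was in Cy3, and was fitted at -0.81 ± 0.35 (SE, n = 4). HM-1 vs B6NT ran from -1.39 to 0.79 (fitted -0.004), HM-1 vs PDCUMNT from -0.54 to 0.54 (0.13) and HM-1 vs ZFCUMNT from -0.84 to 0.44 (-0.21). B6NT vs ZFCUMNT ran from -1.12 to 0.74 (-0.42) and PDCUMNT vs ZFCUMNT, on 3 arrays, from -0.88 to 0.19 (-0.33). The dye term of Sall1 was 0.33, so its ratios leaned to Cy5 whichever line that was. Over the 35 arrays without #4 (B6) the median size of the ratio was 0.54, against 1.68 over the 15 arrays with it.

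The 13 comparisons form a network, from which a level of each gene in each line was estimated by least squares, relative to the mean of the 7 lines. Sall1 was lowest in #4 (B6), at -1.55 ± 0.20 (SE, 50 arrays over all lines). ZFCUMNT followed at -0.26 ± 0.17 and HM-1 NT at 0.05 ± 0.22. PDCUMNT was at 0.39 ± 0.29, B6NT at 0.40 ± 0.19, B6PGA at 0.47 ± 0.27 and HM-1 highest at 0.50 ± 0.15. The step from #4 (B6) to ZFCUMNT was 1.29 ± 0.29, while the other steps between neighbours in this order were 0.01 to 0.34, each about its own SE or less. The other lines stood above #4 (B6) by 1.29 (ZFCUMNT) to 2.05 (HM-1), which is 2.45-fold to 4.15-fold if the ratios are log2. Without the 3 comparisons in which Sall1 passed, #4 (B6) was lowest at -1.19 and the step to the next line, then B6PGA, was 0.87. Without the 5 comparisons whose arrays partly went against their dye labels it was lowest at -0.82, with a step of 0.41 to HM-1 NT. In both of these settings #4 (B6) was linked to the network through ZFCUMNT alone, by the same 3 arrays. They are not separate views of #4 (B6).

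**Figure D2:**
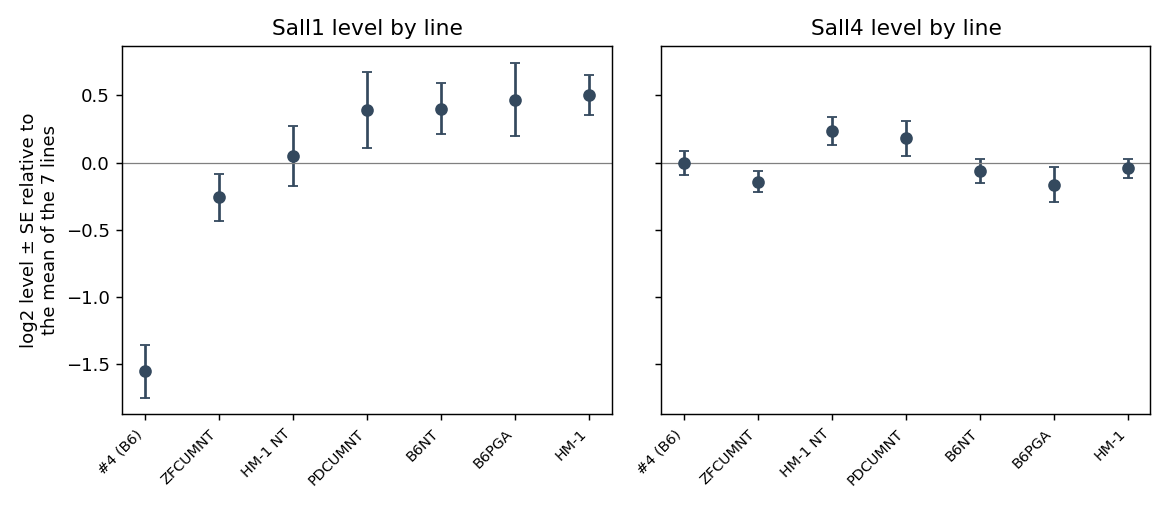
Estimated log2 level of Sall1 (left) and Sall4 (right) in the 7 lines (horizontal axis, ordered by Sall1) relative to the mean of the lines, with bars for ± 1 SE. Sall1 is lowest in #4 (B6) at -1.55, and the 7 levels of Sall4 lie between -0.16 and 0.24.

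The network also holds 9 triangles of lines in which a direct comparison can be set against the sum of 2 others. For Sall1 the median size of the disagreement was 0.22, but 3 triangles disagreed by more than 2 SE. The path from HM-1 over #4 (B6) to B6PGA summed to 1.02 where the direct comparison gave -0.81, a gap of 1.83 ± 0.61. The path from HM-1 over HM-1 NT to ZFCUMNT summed to -2.00 against -0.21, and that from HM-1 NT over B6NT to ZFCUMNT to 0.40 against -1.16. The levels of the lines in these triangles, which are HM-1, #4 (B6), B6PGA, HM-1 NT, ZFCUMNT and B6NT, therefore rest in part on comparisons that did not add up. The level of B6PGA was 1.34 without HM-1 vs B6PGA and -0.31 without #4 (B6) vs B6PGA, and that of #4 (B6) was -1.46 and -1.18. For Sall4, 0 of the 9 triangles disagreed by more than 2 SE, and the largest disagreement was 0.73 in size.

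Sall4, the member tied most closely to pluripotency, stayed near 0. Its fitted values, from the mean of the probes measured on an array, ran from -0.44 ± 0.22 (SE, n = 4) in PDCUMNT vs ZFCUMNT to 0.49 ± 0.22 (SE, n = 4) in HM-1 vs HM-1 NT. The low end rests on probe 7822 alone on 2 of its 4 arrays, and that probe by itself gave -0.43 there, probe 20780 -0.25 on the other 2. Sall4 passed the threshold in 0 of 13 comparisons (limma), and in 1 at an unadjusted p under 0.05. The median size of its 13 values was 0.12, at the 7th percentile of features tested in all 13, where Sall1 with 0.82 was at percentile 99.9. Sall2 and Sall3, family members with 0 calls and not tested in all 13, would stand at 90.7 and 98.4. A high percentile can thus come with wide spread. Sall4 is here a mean of 2 probes and Sall1 a single probe. Even the 0.49 ± 0.22 in HM-1 vs HM-1 NT did not pass, so differences of that size were not detectable at this threshold. Sall4 is therefore not shown to be unchanged.

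The widest set of 4 arrays was #4 (B6) vs ZFCUMNT, with a lowest value of -0.79 and a highest of 1.25. In HM-1 vs HM-1 NT all 4 arrays of Sall4 were positive, from 0.26 to 0.80, and in B6NT vs HM-1 NT too, from 0.001 to 1.06. These put HM-1 NT above both lines, the opposite side of 0 from Sall1 in the same comparisons. In PDCUMNT vs ZFCUMNT (-0.86 to -0.01), B6NT vs ZFCUMNT (-0.84 to -0.04) and HM-1 vs B6NT (-0.15 to -0.004) all 4 were negative.

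Estimated levels of Sall4 ran from -0.16 ± 0.13 (SE) in B6PGA over ZFCUMNT (-0.14), B6NT (-0.06), HM-1 (-0.04), #4 (B6) (-0.001) and PDCUMNT (0.18) to 0.24 ± 0.11 in HM-1 NT. No step between neighbours exceeded 0.18, and each was about its SE or less. In #4 (B6), where Sall1 was lowest, Sall4 was within 0.09 (1 SE) of the mean of the lines. Over the 13 comparisons Sall1 and Sall4 had r = -0.24 and the same sign in 7, as a description of comparisons that share lines.

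The 2 probes of Sall4 did not follow each other. Over the 49 arrays that measured both, r was -0.03, and over the 13 comparisons 0.28. In HM-1 vs HM-1 NT probe 7822 gave 0.12 and probe 20780 gave 0.86, in HM-1 vs B6NT -0.40 and 0.24, and for HM-1 vs ZFCUMNT -0.47 and 0.22. Probe 7822 also reached both -2.18 and 2.26 on the 2 arrays of #4 (B6) vs ZFCUMNT with ZFCUMNT in Cy5. The cDNA stretches behind the probes were not used here, so which part of the transcript each reads is not known.

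**Figure D3:**
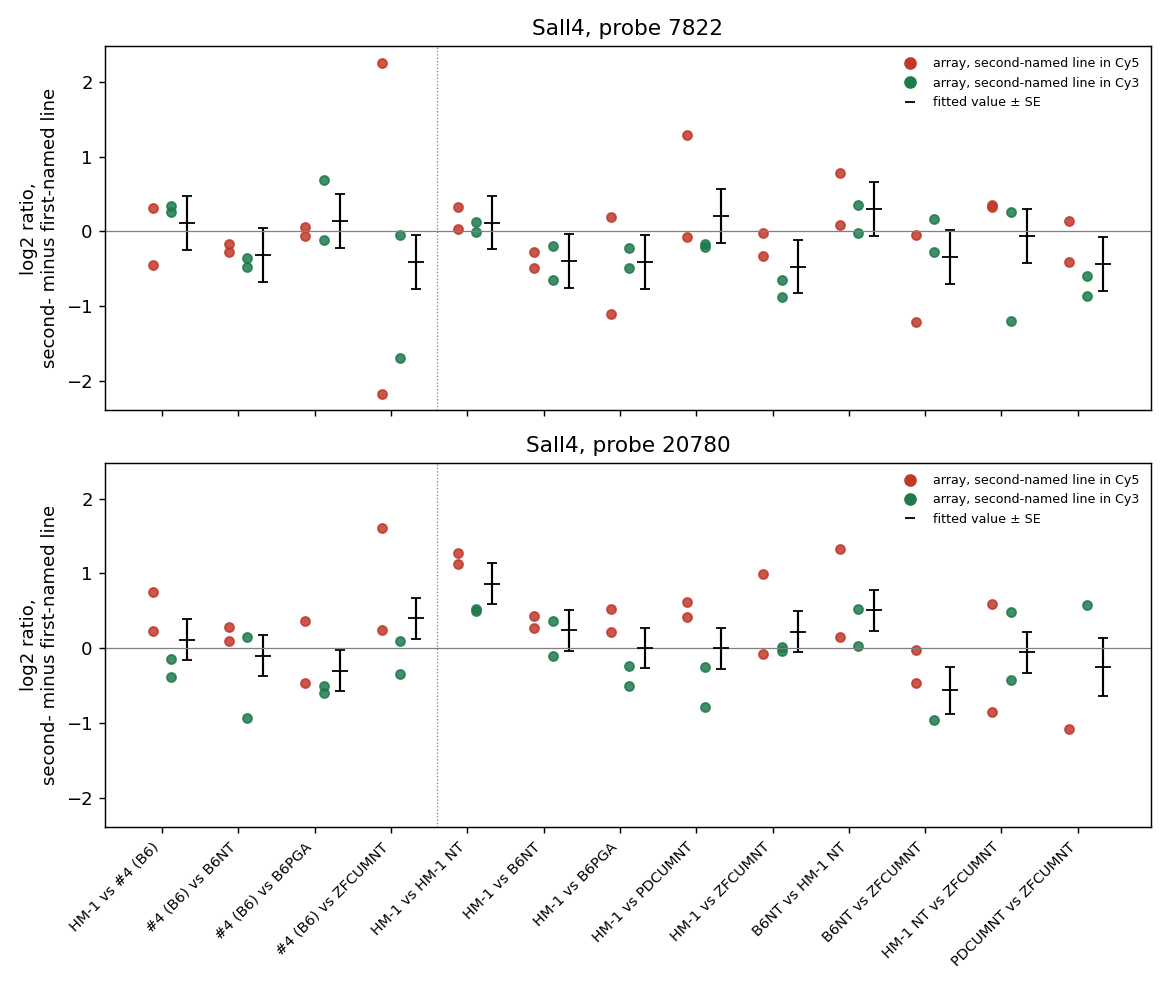
Log2 ratio of Sall4 (vertical axes, second- minus first-named line) on each array of the 13 comparisons (horizontal axis) by probe 7822 (top) and probe 20780 (bottom). Red and green points carry the second-named line in Cy5 and Cy3, black bars are the fitted value ± SE, and the 2 probes differ, for example at -0.40 and 0.24 in HM-1 vs B6NT.

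The other family members, Sall2 (Entrez gene 50524, chromosome 14) and Sall3 (Entrez gene 20689, chromosome 18), each had 1 probe, measured on 43 arrays. Neither passed in any comparison tested (0 of 10 for Sall2, with 1 at an unadjusted p under 0.05, and 0 of 11 for Sall3, with 0, limma). Sall2 was at -1.66 ± 0.49 (SE, n = 4 arrays, limma adjusted p = 0.22) in HM-1 vs B6NT, with 3 of 4 arrays negative. In #4 (B6) the estimated levels of Sall2 (-0.001 ± 0.30, SE) and Sall3 (0.06 ± 0.28) were close to the mean of the lines. No test of Sall1 against the other members was made.

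Among 6451 genes measured in all 13 comparisons, those most like Sall1 over its 13 fitted values were Lactb (r = 0.89), Dppa5a (0.89), Rpl30 (0.88), Gsta4 (0.88) and Chad (0.88). Those least like it were Cxadr (-0.88), Tnnc2 (-0.84) and Xpnpep3 (-0.84). These genes were picked by that r, and the comparisons share lines, so no p is given. The pattern of some was small in size, with Rpl30, a ribosomal protein gene, between -0.27 and 0.28. Dppa5a, an RNA-binding protein of undifferentiated cells, ran from -1.41 to 2.12, where Sall1 ran from -1.78 to 2.80, and was the most like Sall1 of the 6451 also over single arrays (r = 0.76, n = 50), where Lactb had 0.16.

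Within the arrays with and without #4 (B6) the likeness was lower. On those with it, turned to #4 (B6) minus the other line, Dppa5a was negative on 16 of 16, from -3.23 to -0.68, and its r with Sall1 over the 15 that measured Sall1 was 0.28. On the 35 arrays without #4 (B6) its r was 0.33. Klf4 was negative on 15 of 16, from -2.07 to 0.01, with r = 0.59 over the 15 with Sall1 and 0.01 on the other 35. Arrays of 1 comparison share their RNA and each array's genes share its normalization, so these values describe the arrays.

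**Figure D4:**
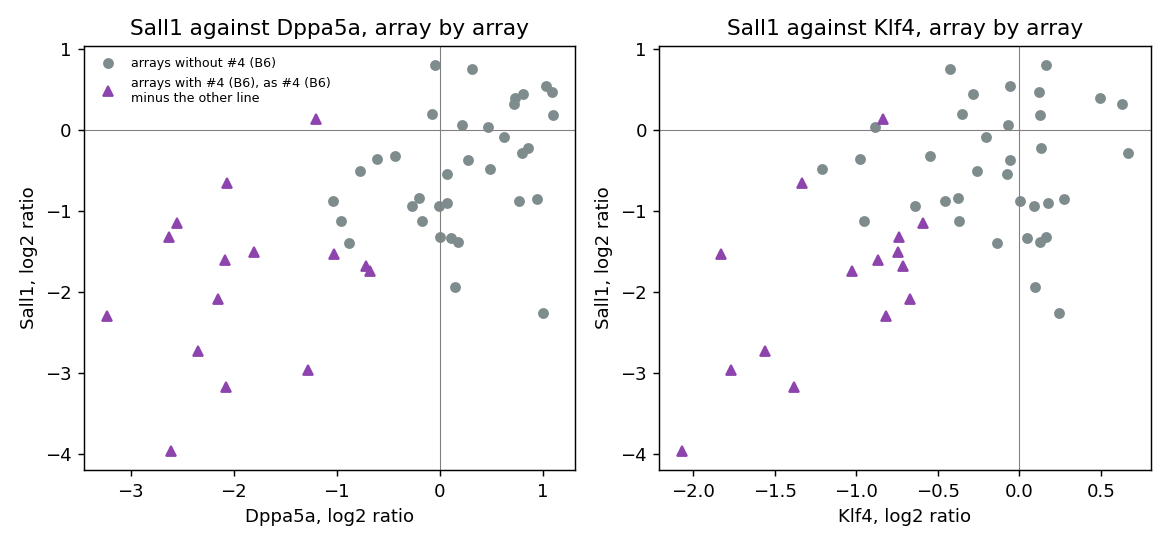
Log2 ratio of Sall1 (vertical axes) against Dppa5a (left) and Klf4 (right) on each array that measured both. Grey circles are the 35 arrays without #4 (B6), second- minus first-named line, and purple triangles the 15 arrays with it, turned to #4 (B6) minus the other line, on which Dppa5a and Klf4 are below 0 on every array and Sall1 on 14.

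For Sall4 the nearest genes were Cmpk1 (r = 0.88), Rps7 (0.88), Swi5 (0.86), Arhgap33 (0.84) and Fzd3 (0.82), and the farthest Sec22c (-0.87), Gpr146 (-0.84) and Gpatch2 (-0.84), over the 13 fitted values. Over single arrays these fell to 0.15 for Cmpk1, 0.21 for Rps7, 0.05 for Fzd3, -0.04 for Sec22c, 0.09 for Gpr146 and 0.001 for Gpatch2. Swi5 (0.53) and Arhgap33 (0.36) kept more of it. With 13 values of small size, these likenesses to Sall4 are weak descriptions.

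Of 22 transcription factors and other genes of the undifferentiated ES cell state, 17 were on the arrays. They gave 16 calls in 215 tests (7.44%, against 0.532% over all features and comparisons). The list was written with earlier results of these data known, and its calls repeat the same genes over comparisons that share lines. Nothing is therefore read from the gap between these shares. The 6 genes called were Dppa5a, Klf4, Rif1, Zfp42, Pou5f1 and Dppa3, and 9 of the 16 calls were in comparisons with #4 (B6). Over all features, the share called was 0.219% to 1.22% in the 4 comparisons with #4 (B6). It was 0.101% to 1.14% in the other 9. Nanog was not among those measured. Dppa5a was called in all 4 comparisons with #4 (B6), at -1.41 ± 0.20 (SE, n = 4, limma adjusted p = 0.00019) in HM-1 vs #4 (B6) and 2.04 ± 0.20 (SE, n = 4, 1.4e-08) in #4 (B6) vs ZFCUMNT, the comparison in which Sall1 did not pass. Klf4, a pluripotency factor, was called in 3 of them, the same 3 as Sall1, at -0.82 ± 0.18 (SE, n = 4, limma adjusted p = 0.029) in HM-1 vs #4 (B6). Rif1, a chromatin and replication timing protein, was called in #4 (B6) vs B6PGA, at 1.14 ± 0.29 (SE, n = 4, limma adjusted p = 0.033).

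Other partners took other courses. Zfp42 (Rex1), a zinc finger marker of ES cells, was called in 6 comparisons, all with HM-1 or HM-1 NT, such as -2.90 ± 0.41 (SE, n = 4, limma adjusted p = 0.00013) in HM-1 vs B6NT, where Sall1 was at -0.004. Dppa3, a maternal factor also called Stella, was called at 2.18 ± 0.35 (SE, n = 4, limma adjusted p = 0.0012) where HM-1 was set against HM-1 NT, and among the 17 it was the one most like Sall4 over arrays (r = 0.48). Pou5f1, which encodes Oct4, was called once, at 0.87 ± 0.22 (SE, n = 4, limma adjusted p = 0.031) in HM-1 vs PDCUMNT. Over arrays its r was 0.26 with Sall1 and 0.32 with Sall4. The estimated level in #4 (B6) was below the mean of the lines for 14 of the 17 partners and above it for 3, Sox2 (0.07 ± 0.21, SE), Klf2 (0.13 ± 0.59) and Dppa4 (0.06 ± 0.09). Of the 6 called genes, Dppa5a was at -1.56 ± 0.08 (SE), Klf4 at -0.90 ± 0.07, Zfp42 at -0.78 ± 0.21, Rif1 at -0.55 ± 0.12, Pou5f1 at -0.35 ± 0.09 and Dppa3 at -0.04 ± 0.16, beside -1.55 for Sall1. Sox2, Klf2 and Dppa4 were named after their values were seen.

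**Figure D5:**
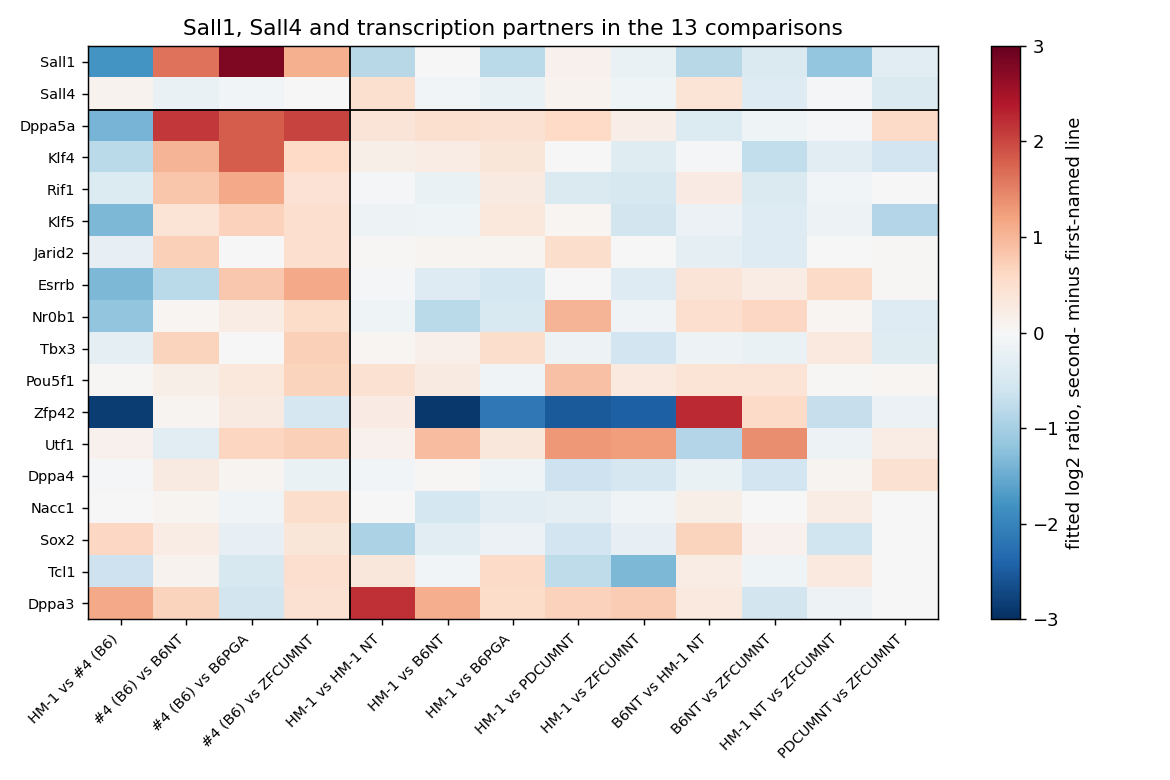
Fitted log2 ratio (colour, red positive and blue negative, second- minus first-named line) of Sall1, Sall4 and 16 partner genes (rows, ordered by r with Sall1) in the 13 comparisons (columns, the 4 with #4 (B6) first). Sall1 goes from -1.78 to 2.80 with Dppa5a and Klf4 in the first columns, while Sall4 stays within -0.44 and 0.49.

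The NuRD complex, the partner of both proteins, had 10 of 14 genes on the arrays and 1 call in 124 tests (0.806%), Mta3 at -2.16 ± 0.50 (SE, n = 4, limma adjusted p = 0.044) in #4 (B6) vs B6NT. Kidney and limb developmental genes, the setting in which Sall1 is best known, gave 0 calls in 106 tests over 9 genes. Of these tests, 7 had an unadjusted p under 0.05 (limma). The cereblon ubiquitin ligase, which marks human SALL4 for degradation when thalidomide is bound, gave 0 calls in 45 tests over 4 genes. Here 5 tests had an unadjusted p under 0.05 (limma). Endoderm markers gave 2 calls in 152 tests (1.32%, against 0.532% over all features), Sparc (1.26 ± 0.27, SE, n = 4, limma adjusted p = 0.013) and Ttr (1.32 ± 0.25, SE, n = 4, 0.0035), both in HM-1 vs B6PGA. Of the 11 endoderm markers tested in that comparison, 6 were positive and 5 negative, so the list as a whole did not go 1 way. Trophectoderm markers gave 2 calls in 76 tests (2.63%), Cdx2 in #4 (B6) vs B6PGA (1.13 ± 0.28, SE, n = 4, limma adjusted p = 0.024) and Krt8 in B6NT vs HM-1 NT (2.27 ± 0.43, SE, n = 4, 0.0028). The 4 Cdx2 arrays ran from -0.01 to 2.60, in a comparison whose arrays 3 and 4 went against their dye labels over all features. Of the 6 markers tested there, 4 were positive and 2 negative. In B6NT vs HM-1 NT all 6 were positive, and Krt8 ran from 0.82 to 3.29.

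Fibroblast markers gave 13 calls in 224 tests over 18 of 22 genes (5.8%, against 0.532% over all features). Of these calls, 5 were in comparisons with #4 (B6), in which 0.219% to 1.22% of all features were called. In the other 9 comparisons 0.101% to 1.14% of all features were called. This list too was written with earlier results known, so nothing is read from its share or from the 5. Vim, an intermediate filament gene, was called higher in #4 (B6) against HM-1 (1.04 ± 0.21, SE, n = 4, limma adjusted p = 0.015) and in #4 (B6) vs ZFCUMNT (-1.05 ± 0.21, SE, n = 4, 0.007). Col1a1 (-1.32 ± 0.24, SE, n = 4, limma adjusted p = 0.0018) and Timp3 (-1.15 ± 0.19, SE, n = 4, 0.00056) were called higher in #4 (B6) in #4 (B6) vs B6NT, and Lox lower in #4 (B6) vs B6PGA (0.79 ± 0.20, SE, n = 4, 0.031). The list had a median of 0.49 in HM-1 vs #4 (B6), one of -0.22 in #4 (B6) vs B6NT, 0.18 in #4 (B6) vs B6PGA and 0 in #4 (B6) vs ZFCUMNT. By its median the list was thus higher in #4 (B6) in the first pair and not in the other, while the fitted value of Sall1 was lower in #4 (B6) in all 4. In 4 comparisons without #4 (B6) the median of the list was between 0.36 and 0.98 and Sall1 was negative. In HM-1 vs B6PGA, where Sall1 was at -0.81, its median was 0.98, with 17 of 18 genes positive and 7 called, among them Col3a1 (1.64 ± 0.25, SE, n = 4, limma adjusted p = 0.00018). Its median was 0.37 for HM-1 NT against HM-1 and 0.44 in B6NT vs HM-1 NT, where Sall1 was at -0.84 and -0.82. In B6NT vs ZFCUMNT it was 0.36, where Sall1 was at -0.42. In the other 5 the median of the list ran from -0.09 to 0.18 and Sall1 from -1.16 to 0.13. Both low ends, -0.09 and -1.16, were in HM-1 NT vs ZFCUMNT. No level stands behind these ratios, so which markers were absent from a line is not known, and the part of other cell types in the Sall1 values was not tested.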

How the data were processed

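Two-colour ratios of 52 arrays were used. The deposited table holds 1 ratio per probe and array, read as log2 from its range. Scanner, image analysis, background correction and normalization are not given in the sources used here. Top values shared by 20 to 174 probes of an array were treated as missing, and no Sall value was among them. Probes of 1 symbol (platform annotation, 12771 of 20794 probes) were averaged to 17053 features, of which 15067 to 16493 were tested per comparison. Ratios were turned by the dye labels and fitted with limma 3.58.1 in R 4.3.3 (1 coefficient per comparison, a dye term, at least 3 arrays), adjusted by Benjamini-Hochberg within a comparison. Line levels came from least squares over the 13 comparisons. No level is known behind a ratio, and the number of arrays limits precision. Replicate numbers did not pair arrays (mean r of same-numbered arrays -0.03). Members and gene lists were chosen with earlier results of these data known. Genes named are the members, the 5 most and 3 least like each, and list genes past the threshold; others were named after their values were seen. Alternatives were the turning, dye term, centring, scaling, weights, replicate block, single probes, fits of 1 comparison alone, and leaving out arrays or comparisons. The fit was tested on simulated data.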

Additional observations from a re-analysis of the deposited data

Results flagged for a closer look

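Sall4 in #4 (B6) vs B6NT had 1 array apart from the other 3, array 3 at -0.71, with B6NT in Cy3. Of 24 sets of 4 arrays of Sall1 and Sall4 this was the 1 flagged, and chance flags about 1 in 20. Sall1 went opposite ways in the pair of comparisons that set a line against an NT line of like name. It was positive on every array of #4 (B6) vs B6NT and negative on all 4 arrays that set HM-1 NT against HM-1, and the values differed by -2.46. That difference was not tested, and the labels do not say which line gave rise to which.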

How the results depend on the processing

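With ratios as deposited, not turned by the dye labels, Sall1 changed sign to 0.07 in HM-1 vs #4 (B6), 0.30 in HM-1 vs HM-1 NT, 0.83 in HM-1 vs B6PGA, 0.38 in HM-1 vs ZFCUMNT, 0.18 in B6NT vs HM-1 NT, 0.32 in B6NT vs ZFCUMNT and 0.29 in HM-1 vs B6NT, and kept it at 0.54 in #4 (B6) vs B6NT, 0.55 in #4 (B6) vs B6PGA and -0.21 in HM-1 NT vs ZFCUMNT. It then passed in 0 comparisons (limma, 0 at an unadjusted p under 0.05), and its level in #4 (B6) was -0.51. Sall4 was at 0.066 in HM-1 vs B6NT, 0.20 in HM-1 vs HM-1 NT, 0.16 in HM-1 vs B6PGA, 0.26 in HM-1 vs ZFCUMNT, -0.049 in B6NT vs ZFCUMNT, 0.19 in #4 (B6) vs B6NT and -0.003 in PDCUMNT vs ZFCUMNT. The cause was not tested. By probe 7822 and probe 20780 singly, Sall4 was at -0.47 and 0.22 in HM-1 vs ZFCUMNT, -0.40 and 0.24 in HM-1 vs B6NT, and 0.12 and 0.86 for HM-1 NT against HM-1. With each comparison fitted alone, on its own 4 arrays, Sall1 passed in 0 (limma, 7 at an unadjusted p under 0.05). The Sall1 level in B6PGA was 1.34 without HM-1 vs B6PGA and -0.39 without the 5 comparisons with arrays against their labels. That alternative and the one without the 3 comparisons in which Sall1 passed were chosen after seeing the data. #4 (B6) was the lowest line for Sall1 in the 21 settings that could change its levels, by 0.19 (not turned) to 1.46, as a description of the values the gene was chosen on. Without a dye term Sall1 passed in 2 comparisons, with the call in #4 (B6) vs B6NT lost. With the replicate block, Sall1 passed in 3 comparisons, with 2.80 in #4 (B6) vs B6PGA, and no call of Sall1 or Sall4 changed. Calls of the partner list went from 16 to 8 without turning, and those of the fibroblast list from 13 to 1 without turning and 7 without a dye term. Other changes of list calls by more than 1.5 times were in lists with at most 5 calls.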
